A study of Mus musculus with 2 samples.

Results

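The genes described here are 8 receptors of the killer cell lectin-like (Klr) family, Klrb1c, Klrb1b, Klra2, Klrd1, Klrk1, Klrc1, Klre1 and Klrg1, taken by symbol from the 27998 genes of the count tables. All 8 were found, each on 1 row. They were followed through CD45+ leukocytes of subcutaneous Lewis lung carcinoma (LLC) tumors, a transplantable mouse lung carcinoma, collected on day 14 from C57/BL6 mice aged 10 weeks. Both groups carried loxP-flanked miR-21 alleles (miR-21fl/fl), and the cko group also carried LysMCre, a Cre under the lysozyme M promoter that acts chiefly in granulocytes and macrophages and in part of the dendritic cells. Lymphocytes are not known as targets of this Cre. Cells of 3 mice were pooled into 1 droplet library per genotype, giving 2449 cells and 24492486 UMIs (distinct RNA molecules) labelled wt and 2718 cells and 27163485 UMIs labelled cko.

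The titles and the source descriptions of the libraries assign the genotypes in opposite ways, and each is therefore referred to by its title, wt or cko. Lyz2, the gene that holds the Cre allele, had 15603 CPM (UMIs scaled to a class total of 1e6) labelled wt and 7087 CPM labelled cko in C1q macrophages, a direction that followed the titles. The growth protocol names a macrophage sort, while T, NK and dendritic cells were present in the data. With 1 library per genotype there is no replicate and no test, and all intervals are 95% intervals for counting error alone. The libraries shared 5 barcodes.

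Killer cell lectin-like receptors are C-type lectin-like proteins on the surface of NK cells and some T cells. Some of them inhibit through motifs in their tails, and others activate through adaptors such as DAP10 (Hcst) and DAP12 (Tyrobp). Their ligands are mostly MHC class I-like proteins or other lectins, so the balance of receptors on a cell sets which neighbours it tolerates or attacks. Klrb1c encodes the activating NK marker NK1.1 and Klrb1b its inhibitory relative, which binds Clec2d. Klrd1 encodes CD94, which pairs with the inhibitory chain NKG2A from Klrc1, and Klrk1 encodes the activating receptor NKG2D. Klra2 encodes Ly49B, an inhibitory Ly49 protein. Klre1 pairs with Klri1 or Klri2, and Klrg1 binds cadherins.

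All 8 genes lie on chromosome 6 (GRCm38, GENCODE M21). Klrg1 (122270596 to 122282882, minus strand) stands 6.50 Mb away from the other 7, which occupy 2.47 Mb of the NK gene complex. Klrb1c (128778485 to 128789215, minus strand) and Klrb1b (128813706 to 128826331, minus strand) are neighbours 24.5 kb apart. Klre1 (129577905 to 129585827, plus strand), Klrd1 (129591782 to 129598775, plus strand), Klrk1 (129610323 to 129623864, minus strand) and Klrc1 (129666015 to 129678973, minus strand) fall within 101 kb. Klra2 (131219223 to 131247362, minus strand) closes the stretch.

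The 250 bases before the RefSeq start (GRCm38.p6) are printed 5′ to 3′ on the gene's strand for 3 members with their highest level in NK or CD8 T cells (Klrb1c, Klrk1, Klrc1), for Klrb1b, found in NK and dendritic cells, and for Klra2, the member highest in monocytes, so that they can be set side by side. Letters in capitals are matches on either strand to TGTGGT, the core bound by RUNX factors, to GAGGAAG, an ETS-type core, or to GGTGTGA, a T-box core. The motifs share no overlapping match here.

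Klrb1c, chr6:128788642-128788891, minus strand: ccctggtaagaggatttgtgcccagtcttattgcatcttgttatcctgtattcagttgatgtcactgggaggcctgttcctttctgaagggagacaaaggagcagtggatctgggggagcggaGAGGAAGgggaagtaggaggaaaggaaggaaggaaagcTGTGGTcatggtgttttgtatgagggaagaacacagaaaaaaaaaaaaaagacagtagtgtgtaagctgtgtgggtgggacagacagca
Klrk1, chr6:129623865-129624114, minus strand: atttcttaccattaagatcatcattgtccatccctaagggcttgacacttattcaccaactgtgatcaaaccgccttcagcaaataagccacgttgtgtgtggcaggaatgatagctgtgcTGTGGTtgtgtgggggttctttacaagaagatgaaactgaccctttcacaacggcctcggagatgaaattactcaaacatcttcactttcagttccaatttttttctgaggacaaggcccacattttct
Klrc1, chr6:129678974-129679223, minus strand: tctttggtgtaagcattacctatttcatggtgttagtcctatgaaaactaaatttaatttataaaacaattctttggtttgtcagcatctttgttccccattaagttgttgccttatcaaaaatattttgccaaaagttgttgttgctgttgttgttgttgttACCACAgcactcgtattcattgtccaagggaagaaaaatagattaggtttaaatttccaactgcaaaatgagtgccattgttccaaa
Klrb1b, chr6:128826316-128826565, minus strand: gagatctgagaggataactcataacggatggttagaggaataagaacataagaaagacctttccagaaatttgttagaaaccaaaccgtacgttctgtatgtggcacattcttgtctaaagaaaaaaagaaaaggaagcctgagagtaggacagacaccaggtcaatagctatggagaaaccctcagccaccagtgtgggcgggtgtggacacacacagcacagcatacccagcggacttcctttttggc
Klra2, chr6:131247363-131247612, minus strand: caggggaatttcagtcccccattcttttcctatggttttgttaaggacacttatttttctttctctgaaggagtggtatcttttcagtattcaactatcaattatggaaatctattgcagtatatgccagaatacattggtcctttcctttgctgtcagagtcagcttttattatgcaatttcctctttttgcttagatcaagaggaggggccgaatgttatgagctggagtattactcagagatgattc

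The RUNX core stood once in each of the windows of Klrb1c, Klrk1 and Klrc1, starting 89, 129 and 87 bases before the start, and in 1 of 2 Klre1 windows. It was not in the windows of Klrb1b (both starts) or Klra2. Of 32851 promoter windows of this length 14.0% held it. The ETS-type core was in the Klrb1c window and in the other Klre1 window, against 10.6% of all windows, and the T-box core (3.33% of all windows) was in none of them. These are matches of letters and not shown binding sites. The table of promoters used here held 6 of the 8 members and neither Klrd1 nor Klrg1.

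Classes were gated on UMIs of marker genes that include no Klr gene. Of 5042 cells kept, 4614 fell into 16 classes, and the receptors were examined in 98 NK cells (52 labelled wt, 46 labelled cko), 173 CD8 T cells (68 and 105), 48 CD4 T cells (22 and 26), 90 T cells with neither CD4 nor CD8 UMIs above the gate (48 and 42), 33 plasmacytoid, 31 type 1, 28 type 2 and 43 mature dendritic cells, 78 granulocytic cells and the monocyte and macrophage classes. B cells (5) were too few to describe. Most check markers outside the gates were highest in their own class, but Irf8, Clec10a, Ccl17, Spn, Eno3, Plac8 and Trem2 were not. Median depth per class ran from 3704 UMIs (granulocytic) to 16375 (type 1 dendritic).

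Klra2 was the monocyte member. Nonclassical monocytes had 435 CPM labelled wt (interval 392 to 482) and 416 CPM labelled cko (377 to 458), and intermediate monocytes, which carry both Ly6c2 and Ace or Treml4, had 459 and 407 CPM. Classical monocytes had 349 and 357 CPM. C1q cells that still carried Ly6c2 had 280 and 315 CPM, the myeloid class low in both C1q and Ly6c2 had 286 and 300 CPM, and C1q macrophages had 162 and 198 CPM. Monocytes exceeded C1q macrophages by a log2 ratio of 1.20 (interval 1.10 to 1.30) labelled wt and 0.91 (0.82 to 1.00) labelled cko. Nonclassical exceeded classical monocytes by only 0.32 (0.15 to 0.48) and 0.22 (0.06 to 0.38), and intermediate and nonclassical monocytes had overlapping intervals in both libraries.

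Granulocytic cells carried Klra2 as well, at 216 CPM (22 UMIs, interval 135 to 327) labelled wt and 136 CPM (39 UMIs, 96.9 to 186) labelled cko. NK cells had 25.9 and 10.1 CPM from 12 and 4 UMIs, and CD8 T cells 8.90 and 7.07 CPM from 6 and 7 UMIs. The 3 monocyte classes together exceeded the 4 lymphoid classes by a log2 ratio of 5.0 (interval 4.34 to 5.76) labelled wt and 5.49 (4.77 to 6.33) labelled cko, 38.0-fold over both. Klra2 was the 1 member of 8 that was at least 4-fold higher in monocytes than in lymphoid classes in both libraries, where 6.25% of 11516 genes passed.

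Detection was also read cell by cell. With all cells thinned to 3000 UMIs (none was shallower), 73.4% and 65.7% of nonclassical monocytes labelled wt and cko had a Klra2 UMI (92.7% and 83.9% without thinning). In C1q macrophages the shares were 41.8% and 43.3% (78.6% and 81.2% without thinning), and in CD8 T cells 5.88% and 0% (7.35% and 6.67% without thinning), where 0 of 105 thinned cells allows a share with a UMI of up to 2.86%. No single monocyte held more than 6.78% of the Klra2 UMIs of its class and library.

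Klrb1b was found in dendritic cells, but NK cells were its highest class. NK cells had 186 CPM (86 UMIs, interval 148 to 229) labelled wt and 134 CPM (53 UMIs, 100 to 175) labelled cko. Type 2 dendritic cells, marked by Cd209a or Mgl2, came next with 173 CPM (29 UMIs, 116 to 248) and 105 CPM (14 UMIs, 57.2 to 176). Their log2 ratio to NK cells was −0.10 (interval −0.76 to 0.52) and −0.35 (−1.32 to 0.52), so the order of these neighbours was within counting error. Type 1 dendritic cells, marked by Xcr1 or Clec9a, had 75.7 and 68.7 CPM (24 and 17 UMIs). Mature dendritic cells had 9.58 and 19.7 CPM, in the range of C1q macrophages at 14.7 and 14.4 CPM, and plasmacytoid dendritic cells had no UMI in 33 cells, which allows a share of cells with a UMI of up to 9.09% at a median depth of 5696 UMIs.

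The type 1, type 2 and mature dendritic classes together exceeded the lymphoid classes by a log2 ratio of 0.55 (interval 0.04 to 1.05) and 0.66 (0.03 to 1.27). No member was at least 4-fold higher in dendritic than in lymphoid classes in both libraries, against 5.04% of 10511 genes. With every marker threshold of the gates doubled, the ratio over both libraries went from 0.595 to 0.0198. Set against C1q macrophages, type 2 dendritic cells were higher by 3.55 (2.91 to 4.15) and 2.86 (1.95 to 3.65). Among T cells Klrb1b was low, at 4.45 and 1.01 CPM in CD8 T cells and 29.4 and 30.2 CPM in T cells with neither coreceptor.

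Without thinning, 84.6% and 60% of type 2 dendritic cells, 68.8% and 66.7% of type 1 dendritic cells and 61.5% and 47.8% of NK cells had a Klrb1b UMI, against 10.9% and 11.7% of C1q macrophages (median depth 11852 and 11328 UMIs). Thinned shares were lower, at 30.8% and 20.0%, 12.5% and 33.3%, and 28.8% and 28.3%, against 4.17% and 4.10% in macrophages. The gap was narrower in percentage points but not in every ratio. The 20 type 2 dendritic cells with Klrb1b held no UMI of the cytotoxic genes Gzma and Prf1, which no gate used, and 210 UMIs of the class II chaperone gene H2-DMb2. They held 6 UMIs of Nkg7 and 2 of Gzmb, of which the 8 cells without Klrb1b had none. The 54 NK cells with Klrb1b held 2583 UMIs of Gzma, 174 of Prf1 and none of H2-DMb2. Of the windows of 98 bases in the last 500 bases of their transcripts, 12.7% of those of Klrb1b are also in the predicted gene Gm44511 and 10.7% of those of Klrb1c in Gm44511 or Klrb1a, so part of their reads cannot be assigned with certainty.

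**Figure D1:**
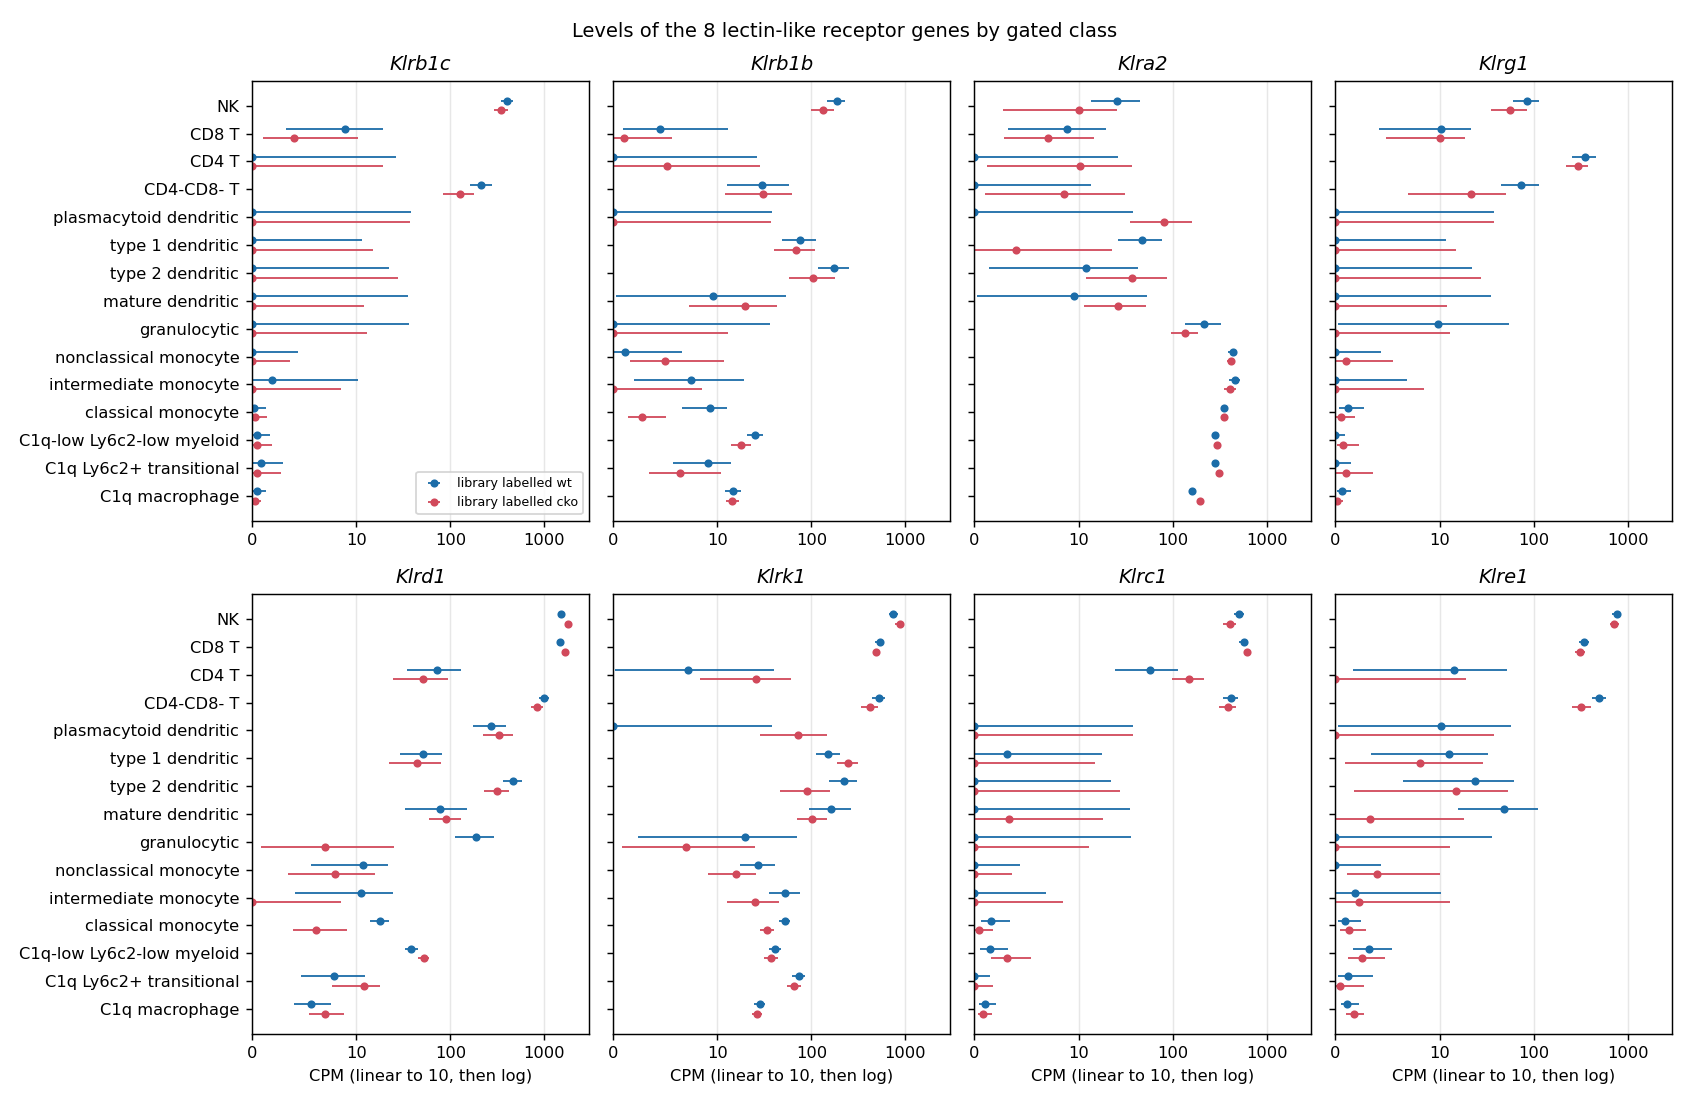
Levels of the 8 genes (panels) in CPM by gated class, on an axis that is linear to 10 CPM and logarithmic above it. Points are the libraries labelled wt (blue) and cko (red), and bars are 95% Poisson intervals. Klra2 fills the monocyte, macrophage and granulocytic rows, and Klrb1b the NK and type 1 and 2 dendritic rows. Klrg1 is highest in the CD4 T row and lower in NK cells and T cells with neither coreceptor. The other 5 are high in NK cells, and of these Klrd1 and Klrk1 also reach dendritic rows and Klrb1c is low in CD8 T cells.

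The remaining 6 members were lymphoid, each in its own way. Together with Klrb1b, all 6 were at least 4-fold higher in lymphoid than in monocyte classes in both libraries, 7 members of 8 against 9.24% of genes. Between NK and CD8 T cells 3 members, Klrb1c, Klrb1b and Klrg1, were at least 4-fold higher in NK cells in both libraries, against 0.973% of 9146 genes.

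Klrb1c, which encodes NK1.1, was highest in NK cells. It had 399 CPM labelled wt (185 UMIs, interval 344 to 461) and 343 CPM labelled cko (136 UMIs, 288 to 406) in NK cells and 8.90 and 4.04 CPM in CD8 T cells. The log2 ratio of NK over CD8 T cells was 5.49 (4.34 to 6.95) and 6.41 (5.02 to 8.30). In CD8 T cells 5 of the 6 UMIs labelled wt came from 1 cell, and CD4 T cells had no UMI in 48 cells, which allows a share of cells with a UMI of up to 6.25% at a median depth of 5728 UMIs. All 4 dendritic gates were also at 0. After thinning, 59.6% and 54.3% of NK cells had a UMI (92.3% and 80.4% without thinning).

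T cells with neither coreceptor were the second class of Klrb1c, with 213 CPM (58 UMIs) and 125 CPM (29 UMIs). In these, 37 cells carried Klrb1c and 53 did not. The 37 cells held 175 of 214 Ncr1 UMIs and 247 of 257 Gzma UMIs of the class, and all of them had Klrd1 UMIs. Gzmb went the other way, with 1225 CPM in the 37 cells and 1653 CPM in the 53. Klrc1 and Klrk1 were found in both sets of cells, with 132 and 71 UMIs of Klrc1 and 173 and 65 UMIs of Klrk1. They were higher in the 37 cells, at 590 against 253 CPM for Klrc1 and 774 against 232 CPM for Klrk1. Klre1 was at 765 against 143 CPM. Zbtb16, the NKT cell factor (chosen after values were seen), had 0 and 3 UMIs.

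Klrd1, which encodes CD94, did not separate NK from CD8 T cells. NK cells had 1515 CPM labelled wt (interval 1405 to 1631) and 1806 CPM labelled cko (1676 to 1944), and CD8 T cells had 1449 CPM (1360 to 1543) and 1673 CPM (1593 to 1755). The log2 ratio was 0.06 (−0.08 to 0.21) and 0.11 (−0.02 to 0.24), so each interval held 0. T cells with neither coreceptor had 1001 and 832 CPM and CD4 T cells 71.4 and 51.4 CPM. After thinning 94.2% and 95.7% of NK cells and 91.2% and 93.3% of CD8 T cells had a UMI, against 0.906% and 1.28% of C1q macrophages (6.52% and 5.64% without thinning, against 98.1% and 97.8% of NK cells and 95.6% and 99.0% of CD8 T cells).

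Klrc1, which encodes the NKG2A chain, leaned to CD8 T cells, mainly in the library labelled cko. In CD8 T cells it had 570 CPM labelled wt (interval 514 to 629) and 625 CPM labelled cko (577 to 676). NK cells had 509 CPM (446 to 578) and 404 CPM (344 to 471). The ratio of NK over CD8 T cells was −0.16 (−0.40 to 0.08) labelled wt and −0.63 (−0.89 to −0.38) labelled cko, where NK cells were lower. Over both libraries it was −0.388, and −0.205 as a mean over cells. Labelled wt, 44 of 52 NK cells and 54 of 68 CD8 T cells had a Klrc1 UMI. Labelled cko, 28 of 46 and 95 of 105 did. Of the windows of 98 bases in the last 500 bases of Klrc1 transcripts, 18.1% are also in Klrc2, so reads of the sequenced length could be split between these 2 genes. Klrc2 itself was measured at 181 and 218 CPM in CD8 T cells and 181 and 189 CPM in NK cells.

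Klrd1 and Klrc1 were then read together, cell by cell. In NK cells 72 of 98 had a Klrc1 UMI and 71 of these also had Klrd1, and in CD8 T cells 149 of 173 had Klrc1 and 147 of these had Klrd1. Klrd1 without Klrc1 was seen in 25 NK cells and 22 CD8 T cells. Klrd1 itself was in 96 of the NK cells and 169 of the CD8 T cells, so an overlap with it was near its ceiling.

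Klrk1, which encodes NKG2D, was somewhat higher in NK cells, with 744 and 865 CPM against 531 and 491 CPM in CD8 T cells (log2 ratio 0.49, interval 0.27 to 0.71, and 0.82, 0.62 to 1.02). Klre1 was more so, with 764 and 724 CPM against 344 and 312 CPM (1.15, 0.91 to 1.40, and 1.21, 0.98 to 1.45). In T cells with neither coreceptor both were also high, at 519 and 418 CPM for Klrk1 and 500 and 323 CPM for Klre1. CD4 T cells held few UMIs of either, 1 and 5 of Klrk1 and 2 and 0 of Klre1. In C1q macrophages Klre1 had 1.17 and 1.77 CPM, and Klrk1 28.0 and 26.3 CPM.

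Klrg1 stood apart, with its highest level in CD4 T cells. These had 350 CPM (49 UMIs, interval 259 to 463) labelled wt and 293 CPM (57 UMIs, 222 to 380) labelled cko, against 10.4 and 10.1 CPM in CD8 T cells, a log2 ratio of 5.08 (3.93 to 6.46) and 4.86 (3.88 to 5.99). Klrg1 was seen in 23 of 48 CD4 T cells, at a median depth of 6986 UMIs in these cells and 4706 UMIs in the other 25. The 23 cells held 43 of 52 UMIs of Foxp3, the regulatory T cell factor, and 45 of 56 UMIs of Il2ra, the alpha chain of the interleukin-2 receptor, but also 402 of 534 Gzmb UMIs. Of Areg, made by tissue regulatory T cells, they held 5 of 15 UMIs. Foxp3, Il2ra and Gzmb were looked at here after values were seen, and Gata3 (28 of 44 UMIs) was among the genes most like Klrg1. Scaled to depth, Gata3 was at 141 CPM in the 23 cells and 117 CPM in the other 25. Foxp3 was at 217 and 65.9 CPM. Only 1 of the 23 cells had Klrd1, against 8 of the other 25.

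Klrg1 was also in NK cells at 84.1 CPM (39 UMIs) and 55.5 CPM (22 UMIs), where a single cell held 33.3% and 50% of the UMIs. Its ratio of NK over CD8 T cells was 3.02 (1.84 to 4.42) and 2.46 (1.32 to 3.70). Without the cell with most UMIs in each library and class it was no longer 4-fold higher in both libraries. Klrg1 had no UMI in any dendritic gate and 0.652 and 0.196 CPM in C1q macrophages.

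**Figure D2:**
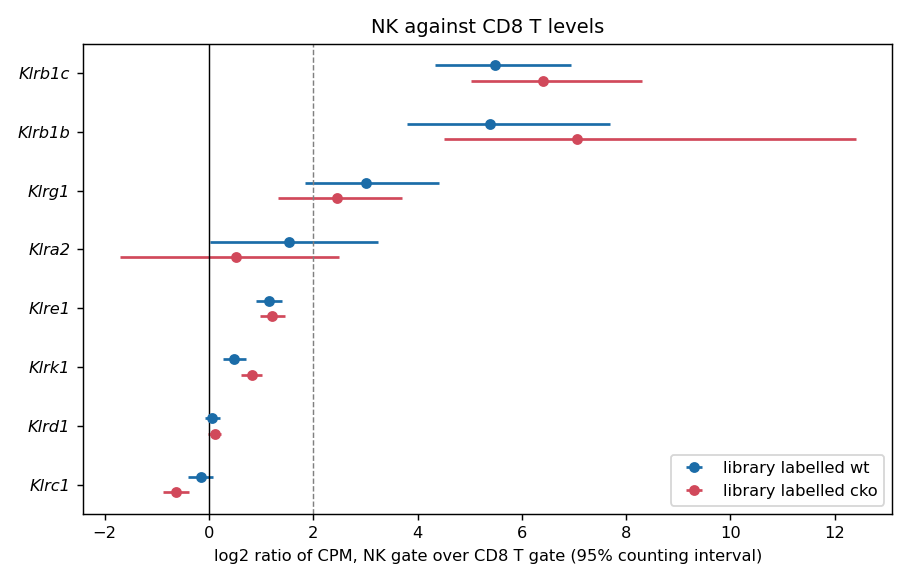
Log2 ratio of CPM in NK over CD8 T cells for each gene (rows) in the libraries labelled wt (blue) and cko (red), with 95% counting intervals; the dashed line marks 4-fold. Klrb1c, Klrb1b and Klrg1 lie to its right, Klre1 and Klrk1 between it and 0, Klrd1 on 0 and Klrc1 on the CD8 side.

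Counted over the 6 lymphoid members, a median of 5 were detected per NK cell, 4 per CD8 T cell, 3 per T cell with neither coreceptor and 1 per CD4 T cell (4, 3, 3 and 1 after thinning). At least 4 of the 6 were seen in 93.9% of NK cells, 67.1% of CD8 T cells, 45.6% of T cells with neither coreceptor and 2.08% of CD4 T cells. None was seen in 73.1% of C1q macrophages and 73.3% of classical monocytes (91.0% and 86.2% after thinning). Most of the macrophage detections were of Klrk1, seen in 21.7% and 18.1% of cells (7.97% and 6.79% after thinning), against 6.52% and 5.64% for Klrd1 (0.906% and 1.28% after thinning), 1.45% and 1.15% for Klrc1 (0.362% and 0.128% after thinning) and 0.725% and 0.385% for Klrb1c.

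Dendritic cells carried a narrower set. Klrd1 reached 459 CPM (77 UMIs, interval 362 to 574) labelled wt and 314 CPM (42 UMIs, 226 to 424) labelled cko in type 2 dendritic cells, and 270 CPM (26 UMIs) and 326 CPM (32 UMIs) in plasmacytoid dendritic cells. The ratio to C1q macrophages was 6.36 (5.80 to 6.93) and 5.49 (4.91 to 6.06) for type 2 and 5.59 (4.83 to 6.32) and 5.55 (4.90 to 6.17) for plasmacytoid cells. In the library labelled cko 1 type 2 dendritic cell held 54.8% of the Klrd1 UMIs. Type 1 and mature dendritic cells were lower, at 50.5 and 44.4 CPM and 76.6 and 88.8 CPM.

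Klrc1, the usual partner of Klrd1, was at 0 in the 22 type 2 and the 21 plasmacytoid dendritic cells with Klrd1. The 22 cells held no UMI of Ncr1, Gzma, Prf1, Eomes or Cd3e, and the same held for the 21 cells, although the gates themselves allowed at most 1 UMI of Ncr1 and 2 of the Cd3 genes. Nkg7 had 5 and 3 UMIs in these sets of cells and Gzmb 2 and 1. They did hold dendritic genes, with 249 UMIs of Mgl2 and 230 of H2-DMb2 in the type 2 cells and 224 UMIs of Siglech in the plasmacytoid cells, of which Mgl2 and Siglech are genes of the gates. Flt3 and Cd209a, also genes of the gate, were at 85.3 and 40.6 CPM in the 22 type 2 cells and at 163 and 72.3 CPM in the 6 without Klrd1. Nkg7, an NK granule gene, was at 19.9 CPM in the type 2 class and 25.7 CPM in the plasmacytoid class over both libraries, against 2629 CPM in NK cells. Klrd1 in type 2 dendritic cells was at 24.0% of its NK level, while Nkg7 was 0.757% of its own.

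Klrk1 was spread over type 1 dendritic cells (151 and 242 CPM, UMIs in 93.8% and 100% of cells), mature dendritic cells (163 and 102 CPM) and type 2 dendritic cells (221 and 89.7 CPM). Thinned, 31.2% and 53.3% of type 1 dendritic cells had a Klrk1 UMI. In the library labelled cko 75.0% of the type 2 UMIs were in 1 cell. Plasmacytoid dendritic cells had 0 and 7 UMIs of Klrk1, 5 of them in 1 cell. Klrb1b and Klrd1 were found together in 17 of 28 type 2 dendritic cells, while no plasmacytoid cell had Klrb1b.

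**Figure D3:**
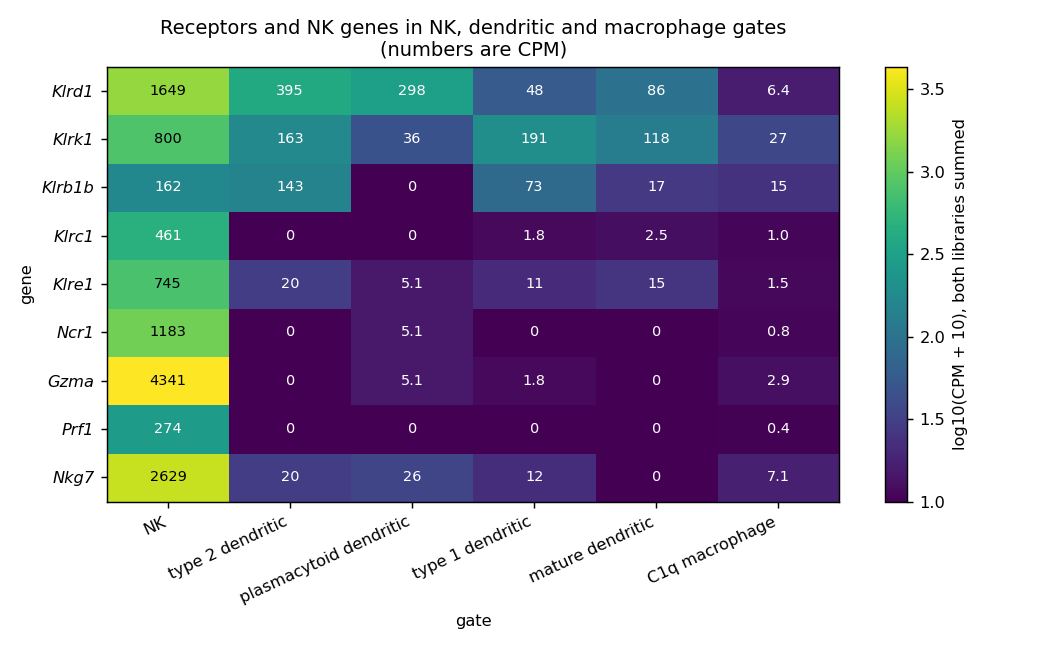
CPM of 5 receptors and 4 NK genes (rows) in 6 gates (columns), libraries summed, with color as log10(CPM + 10). Klrd1 stands at 395 CPM in type 2 and 298 CPM in plasmacytoid dendritic cells, where Ncr1, Gzma and Prf1 are between 0 and 5.14 CPM.

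Monocytes also held Klrk1 at a low level, 52.2 and 33.5 CPM in classical monocytes and 72.8 and 65.0 CPM in C1q cells with Ly6c2. The myeloid class low in C1q and Ly6c2 had 38.3 and 52.0 CPM of Klrd1 (156 and 201 UMIs). Its Klrb1b was at 25.3 and 17.9 CPM (103 and 69 UMIs). Klrd1 in classical monocytes was at 17.8 CPM (75 UMIs) and 6.13 CPM (24 UMIs). It was seen in 8.23% and 5.16% of cells, against 6.52% and 5.64% of C1q macrophages. After thinning these shares were 4.01% and 1.79%, against 0.906% and 1.28%. C1q macrophages had 5.61 and 6.97 CPM of Klrd1. Over both libraries Klrd1 was at 12.2 CPM in classical monocytes, Nkg7 at 10.7 CPM and Gzmb at 12.5 CPM. In NK cells these genes had 1649, 2629 and 4209 CPM. Whether the Klrd1 UMIs come from the monocytes or from free RNA was not tested. The Klrd1 UMIs lay in 62 of 920 cells, and 4 cells with 5 or more UMIs held 30 of the 99. The 62 cells held 49 of 303 Klra17 UMIs, 63 of 351 Klrk1 UMIs and 30 of 145 UMIs of the class II chaperone gene H2-DMb2. Of Nkg7 they held 7 UMIs, and the other 858 cells held 80.

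Library ratios could be formed for 62 pairs of a member and a class with at least 10 UMIs. In cells labelled cko, 2 of these pairs were at least 2-fold higher and 9 at least 2-fold lower, beside 6.05% and 4.79% of 101503 gene and class pairs. With a minimum of 1 UMI, an alternative chosen after seeing the data, 5 of 100 member pairs were higher and 12 lower, beside 3.96% and 4.03% of 178249 pairs. The 2 higher pairs were both of Klrc1, in CD4 T cells and in the myeloid class low in C1q and Ly6c2 (6 and 12 UMIs). In NK cells no member was 2-fold higher (5.08% of 6668 genes were) and 1 was 2-fold lower (7.11%), Klra2 with 12 and 4 UMIs. In CD8 T cells none was higher (6.22% of 8214 genes) and 1 was lower (3.87%), Klrb1c with 6 and 4 UMIs, which turned to a ratio of 0.442 without the top cell of each library.

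Klrd1 was slightly higher in the library labelled cko in both cytotoxic classes, by 0.25 (interval 0.10 to 0.41) in NK cells and 0.21 (0.09 to 0.32) in CD8 T cells. Taken as a mean over cells, in which each cell weighs the same, these ratios were 0.09 and 0.01. Klrk1 in NK cells had a ratio of 0.22, Klrc1 in CD8 T cells 0.13 and Klrb1c in NK cells −0.22. Klrc1 in NK cells was lower by −0.34 (−0.63 to −0.04). In T cells with neither coreceptor Klrb1c (−0.77, −1.47 to −0.10) and Klre1 (−0.63, −1.06 to −0.21) were lower.

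Klra2 was at the same level in classical monocytes (0.03) and slightly higher in C1q macrophages, 162 and 198 CPM, a ratio of 0.29 (0.18 to 0.39). In classical monocytes no member was 2-fold higher (2.10% of 10204 genes) and 2 of 4 were lower (2.09%). These were Klrb1b, with 39 and 11 UMIs (−1.72, −2.83 to −0.73), and Klrd1, with 75 and 24 UMIs (−1.54, −2.26 to −0.86). The source of the Klrd1 UMIs was not tested. Over both libraries the Klrb1b UMIs lay in 33 cells, which had H2-DMb2 at 123 CPM and Nkg7 at 8.17 CPM. The other 887 cells had 12.9 and 10.8 CPM of these genes. Klrk1 in the same class was lower by −0.64 (−0.96 to −0.32). The class held 474 and 446 cells at median depths of 8481 and 8325 UMIs.

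Of 10949 genes tested in at least 2 classes, 12.4% had an interval above 0 in a class and another below 0, as did 4 of the 8 members (Klra2, Klrd1, Klrk1 and Klrc1). Some of the widest ratios rested on 1 cell. Klrd1 in granulocytic cells (19 and 2 UMIs, −4.74, −7.88 to −2.69) had 18 of its 19 UMIs in 1 cell, and Klra2 in type 1 dendritic cells (15 and 1 UMIs, −3.55) had 11 of 15 in 1 cell. Klrg1 in T cells with neither coreceptor (20 and 5 UMIs, −1.77) had 65.0% in 1 cell. Klrc1 in CD4 T cells went from 8 to 29 UMIs (1.38, 0.22 to 2.72), spread over 3 and 7 cells. Klrk1 had 37 and 12 UMIs in type 2 dendritic cells (−1.30, −2.37 to −0.33) and 28 and 11 UMIs in intermediate monocytes (−1.05).

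**Figure D4:**
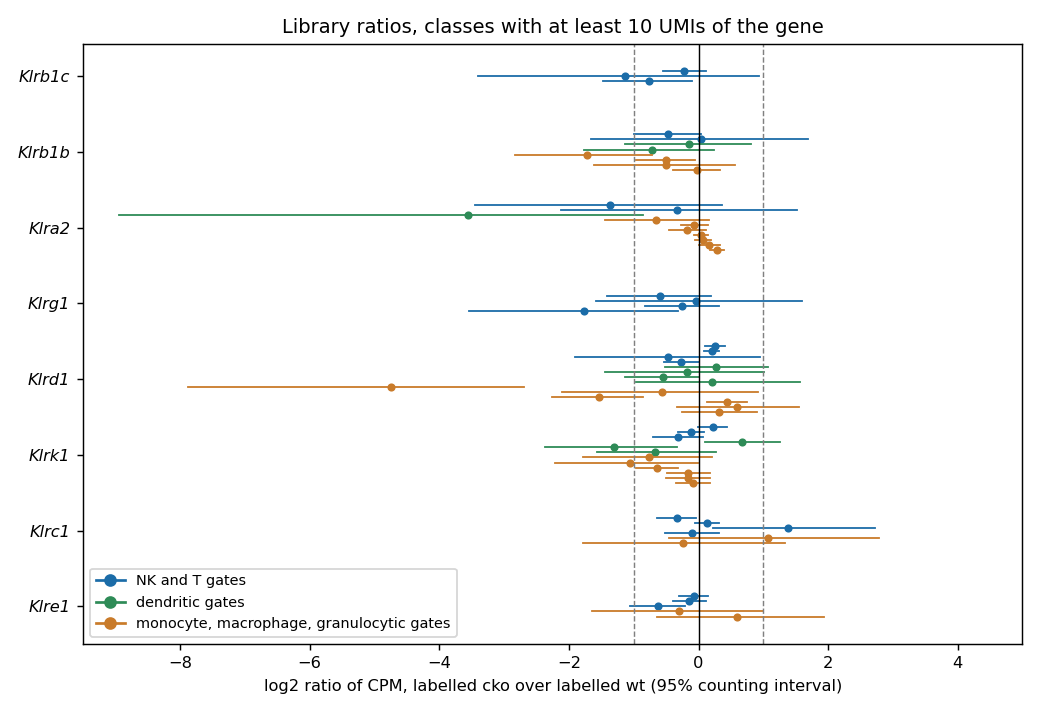
Log2 ratio of CPM, labelled cko over labelled wt, for each gene (rows) and each class with at least 10 UMIs (points, with 95% counting intervals). Blue marks NK and T gates, green dendritic gates and brown the other myeloid gates; dashed lines mark 2-fold. Points of Klrd1, Klrk1, Klrc1 and Klre1 in NK and CD8 T cells lie inside the dashed lines, and the widest ratios, Klrd1 in granulocytic cells and Klra2 in type 1 dendritic cells, have wide intervals.

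The rest of the receptor system was read from a list of other Klr genes, adaptors and ligands. Of 19 other Klr genes 18 were in the table, 16 had at least 10 UMIs and 13 of these were highest in an NK or T class. Klra7 (698 CPM in NK cells over both libraries, 550 CPM in T cells with neither coreceptor) and Klra4 (399 CPM in NK cells) belong to the Ly49 receptors. Klrb1a and Klrb1f, relatives of Klrb1c, also over both libraries, had 141 and 174 CPM in NK cells. Klra1 and Klra6 were highest in T cells with neither coreceptor, at 220 and 103 CPM, and Klra9 was at 140 CPM in NK cells.

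Like Klra2, Klra17 of the Ly49 family was found outside lymphocytes, with 280 and 448 CPM in plasmacytoid and 125 and 194 CPM in type 2 dendritic cells, and 35.8 and 38.8 CPM in classical monocytes. The DAP12 gene Tyrobp had 2222 and 1829 CPM in NK cells, 3613 and 3715 CPM in classical monocytes and 157 and 119 CPM in CD8 T cells. The DAP10 gene Hcst, the adaptor of NKG2D, had 334 and 366 CPM in NK cells and 350 and 339 CPM in CD8 T cells. CD4 T cells, with few Klrk1 UMIs, had 457 and 221 CPM of Hcst. Of the other adaptors and phosphatases, Fcer1g, Cd247 and Ptpn6 passed 100 CPM in a class over both libraries.

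Of 11 ligand genes 10 had at least 10 UMIs and 2 reached 100 CPM in a class over both libraries. H2-T23, which encodes the Qa-1 ligand of CD94 with NKG2A, was in every class, from 97.8 CPM in granulocytic cells labelled cko to 623 CPM in plasmacytoid dendritic cells labelled wt. Cdh1, the E-cadherin ligand of Klrg1, was at 72.6 and 132 CPM in plasmacytoid dendritic cells. Over both libraries, Clec2d, the ligand of Klrb1b, was highest in CD4 T cells at 95.6 CPM, though in the library labelled wt plasmacytoid dendritic cells had 135 CPM and CD4 T cells 114 CPM. Also over both libraries, the NKG2D ligands Raet1d and Raet1e were highest at 19.5 and 23.7 CPM in the myeloid class low in C1q and Ly6c2.

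Likeness of pattern was measured by Pearson's r of log2(CPM + 10) over the 32 sums of class and library, among 11007 genes with at least 50 UMIs. The points share 2 libraries and unequal depth, so r is a description. Klrb1c was most like Klra7, Klra9 and Klra3 (r from 0.979 to 0.985), all Ly49 genes of NK cells. Klrc1 was most like its neighbour Klrc2 (0.995), Cd96 and Sh2d1a, and Klrc2 shares part of its transcript end with Klrc1. Klra2 was most like Trem3 (0.937), F10 and Gm5150, and Klrg1 like Ccdc184 (0.949), Espn and Gata3.

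Klre1 was most like Eomes (0.945), a transcription factor of NK and effector T cells. Klrd1 and Klrk1 each had Klre1 among their 3 nearest genes (0.841 and 0.823). Klrb1b had Bbs9 (0.857) first. Among the members, Klrc1 and Klre1 were the closest pair (0.885) and Klra2 was negative to all 7 others (from −0.655 to −0.290).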

How the data were processed

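Single CD45+ cells of LLC tumors were profiled by droplet 3′ sequencing, with 3 mice pooled per library. The authors deposited UMI counts per gene and cell, made per the labels with Cell Ranger on mm10, and name Seurat for later steps. Versions are not given in the sources used here. Cells needed 200 genes and at most 10% mitochondrial UMIs (18 removed). Doublets were removed as the highest Scrublet scores at 0.8% per 1000 cells (48 and 59 cells, scanpy 1.11.5), since the caller's own threshold marked only 0 and 5 cells. Cells were gated on marker UMIs, and 428 stayed ungated.

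UMIs were summed by class and library and divided by the class total (CPM), with exact Poisson intervals. Ratios have conditional binomial intervals, and shares were read after thinning to 3000 UMIs. Ratios between libraries needed 10 UMIs over both. Libraries held 24492486 and 27163485 UMIs, with medians of 8359 and 8247 per cell. A gene at 0 was set against a floor of 3 counts. No test was run, since each genotype is 1 pooled library. The alternatives were edgeR 4.0.16 TMM scaling, means over cells, doubled gate thresholds, doublets kept, cells of at least 5000 UMIs, removal of the top cell, other thinning depths and another UMI minimum. Named genes were all 8 members, list genes at 100 CPM or more in a class or found beside a member, and the 3 genes most like each member by r. Most genes outside this rule are said to be chosen after values were seen, or are gate and marker genes. Nkg7, Lyz2 and, in dendritic cells and monocytes, Gzmb fall under none of these. Members and lists were chosen with earlier results of these data known. Python 3.11.15, numpy 2.4.6, scipy 1.17.1, pandas 2.3.3 and R 4.3.3 were used.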

Additional observations from a re-analysis of the deposited data

Results flagged for a closer look

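For 4 members the library labelled cko was higher in some classes and lower in others, each with a counting interval that left 0, as did 12.4% of 10949 genes tested in at least 2 classes. The difference between classes was not tested, since each genotype is 1 library.

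Klrd1 was higher in NK cells (log2 ratio 0.254), CD8 T cells (0.207) and the myeloid class low in C1q and Ly6c2 (0.443), and lower in classical monocytes (−1.54) and granulocytic cells (−4.74). Klrk1 was higher in type 1 dendritic cells (0.678) and lower in type 2 dendritic cells (−1.30), intermediate monocytes (−1.05) and classical monocytes (−0.640). Klrc1 was higher in CD4 T cells (1.38) and lower in NK cells (−0.335). Klra2 was higher in C1q macrophages (0.286) and C1q cells with Ly6c2 (0.167), and lower in type 1 dendritic cells (−3.55). In granulocytic cells 94.7% of the Klrd1 UMIs labelled wt, and in type 1 dendritic cells 73.3% of the Klra2 UMIs labelled wt, were in 1 cell.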

How the results depend on the processing

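Of 221 values set against an alternative, 188 stayed inside the counting interval of the reported value (for counts and shares of genes, within 1.5-fold), 32 moved outside it and 1 reversed outside it. In all 4 values changed sign, 3 of them inside the interval. These were Klrb1c in CD8 T cells (−1.14 to 0.442 without the top cell), Klrg1 in CD4 T cells (−0.257 to 0.267 as a mean over cells) and Klra2 in classical monocytes (0.0322 to −0.0464 with gate thresholds doubled). TMM scaling and keeping the doublets moved none. The log2 ratio of Klra2 in monocytes over lymphoid classes (5.25) ran from 5.10 to 5.64. That of Klrb1b in dendritic over lymphoid classes (0.595) went to 0.0198 with gate thresholds doubled. Of the 6 lymphoid members, the 2 that were 4-fold higher in NK than CD8 T cells in both libraries became 1, Klrb1c, as a mean over cells and also without the top cell of each class. The 11 pairs of a member and a class past 2-fold between libraries became 17 with at least 1 UMI in place of 10, an alternative chosen after seeing the data, as the pairs tested went from 62 to 100. Of all gene and class pairs 3.96% were then higher and 4.03% lower. With that minimum, the share of all genes 2-fold lower in NK cells went from 7.11% to 4.34% and that 2-fold higher in CD8 T cells from 6.22% to 4.06%. Klra2 in type 1 dendritic cells reversed from −3.55 to 0.00621 without its top cell, which left 4 UMIs against 0 set at 3 counts. Klrd1 in granulocytic cells went from −4.74 to −1.61 without its top cell and −0.566 with thresholds doubled, and Klrk1 in type 2 dendritic cells from −1.30 to −2.88 and −3.90. Klrg1 in CD4 T cells went to −1.09 among cells of at least 5000 UMIs. Of 8 shares of cells with a UMI, 8 moved with thinning to 1000 UMIs and 6 without thinning. The causes were not tested. Small classes limit the depth, so differences inside the intervals were not detectable. No paired analysis was possible because each genotype is 1 pooled library.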
